A study of Mus musculus with 6 samples.

Results

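Collagen chain genes are the genes whose symbol is Col, a type number, the letter a and a chain number, with nothing after it. By that rule 43 of the 20494 rows of the gene table were collagen chains, and Col9a1 was not analysed here. The table compares whole lungs of male C57BL/6 mice aged 4 months and left untreated: 3 libraries were wild type and 3 were lincRNA-Cox2 knockout. LincRNA-Cox2 is a long noncoding RNA whose gene lies beside Ptgs2 on chromosome 1, and the labels describe the knockout no further than its genotype. Each library has its own label, but nothing says how the mice were bred or matched between genotypes, so p-values measure the spread between these libraries. In the authors' deposited table the lincRNA-Cox2 mean was 311 in wild type and 0.666 in knockout (adjusted p = 4.05e-91, DESeq2), in keeping with the labels.

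A trio of chains winds into each collagen molecule, which is secreted and built into fibrils, sheets or filaments outside the cell. Fibrillar collagens such as types I, III and V give tissue its tensile strength, and type IV forms the network of basement membranes, including the thin membrane shared by alveolar epithelium and capillary endothelium. Type VI makes beaded filaments near cell surfaces, fibril-associated (FACIT) collagens sit on fibrils, and transmembrane collagens stay in the plasma membrane. The chains of one molecule can come from the same gene or from different genes, and the type IV genes lie in head-to-head pairs that share a promoter region.

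Among the type IV genes the 3 pairs differed in how close their start sites were on GRCm38 (GENCODE M21 gene bounds). Col4a1 on the minus strand and Col4a2 on the plus strand of chromosome 8 start at 11312826 and 11312805, so that their first bases overlap by 22. Col4a4 and Col4a3 on chromosome 1 are 71 bases apart, and Col4a6 and Col4a5 on chromosome X are 1308 bases apart. Only on chromosome X is there room upstream of both genes, and those flanks are shown because the pair with the widest gap can be read as separate upstream stretches. Each is 150 bases from the RefSeq promoter table (GRCm38.p6), 5′ to 3′ on its own gene's strand, at chrX:141474096-141474245 (minus strand) for Col4a6 and chrX:141475220-141475369 (plus strand) for Col4a5. Capitals mark matches on either strand to a CCAAT box (CCAAT), a GC box (GGGCGG) or a TATA box (TATAAA).
Col4a6 upstream: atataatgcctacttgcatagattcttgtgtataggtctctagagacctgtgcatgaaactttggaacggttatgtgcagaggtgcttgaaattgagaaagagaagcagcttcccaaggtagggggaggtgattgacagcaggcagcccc
Col4a5 upstream: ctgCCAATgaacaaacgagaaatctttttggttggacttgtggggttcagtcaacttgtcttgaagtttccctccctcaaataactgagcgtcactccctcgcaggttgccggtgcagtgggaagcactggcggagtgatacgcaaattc
The Col4a5 stretch holds 1 CCAAT and no other match, and the Col4a6 stretch holds none of the 3 motifs. In the longer windows counted next, both genes have a GC box that lies outside these printed bases. Over the 250 bases upstream of every start in that table, a GC box was found in 22 of 36 windows of 34 collagen genes, against 32.7% of 32851 windows of all genes. CCAAT was found in 12 of the 36 windows against 33.8%, and TATAAA in 5 of 36 against 12.4%. These matches are a description of letters and say nothing of which factors bind.

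The most abundant collagen messages in these lungs were the basement membrane chains Col4a1 and Col4a2, the chains of the type IV network found in nearly every basement membrane. To set genes side by side, each group mean of normalized counts was divided by the length of the gene's merged exons, and all levels here are mean normalized counts per kilobase. Col4a1 stood at 3616 in wild type and 3164 in knockout, and Col4a2 at 3489 and 3073. Next came Col6a1 at 1838 in wild type, the fibrillar chain Col3a1 at 1271, Col4a3 at 1103, Col1a1 at 1094, Col1a2 at 986, Col4a5 at 910.3, the transmembrane collagen Col23a1 at 688 and Col6a2 at 627. The neighbours Col4a1 and Col4a2 differed by less than 1 spread between libraries (a coefficient of variation of 6.51% and 6.84%), and so did Col4a3 and Col1a1. The order depends on the length used: over the principal transcript alone, Col1a2 stood at 2290.3 and Col6a1 at 1964 in wild type. At the other end the cartilage chain Col2a1 had 0.323 per kilobase in wild type.

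**Figure D1:**
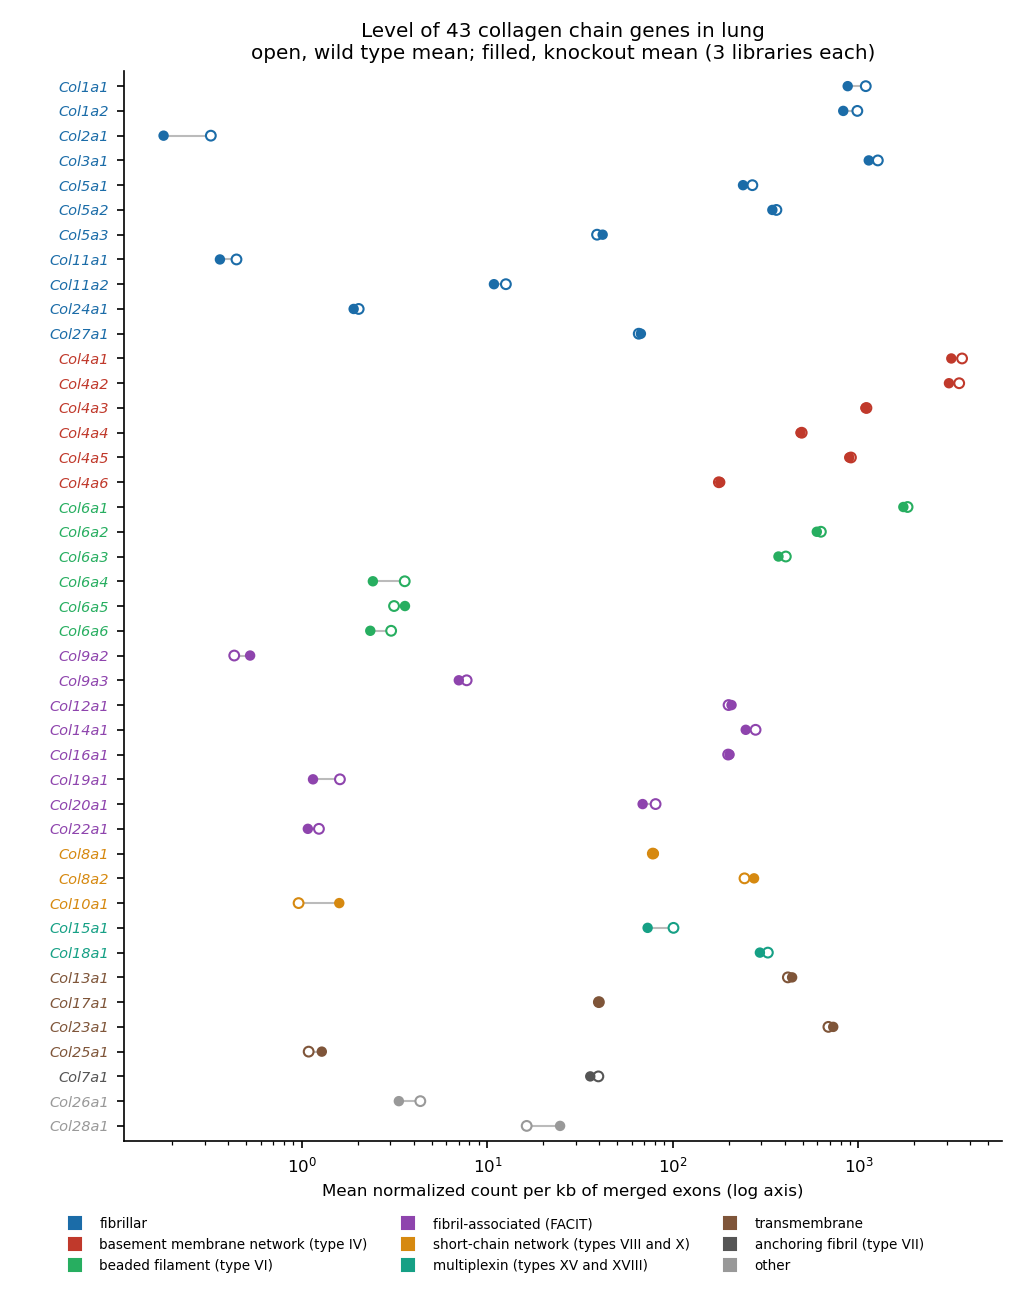
Mean normalized count per kilobase of merged exons (log axis) for the 43 collagen chain genes, open circles for wild type and filled circles for knockout, each a mean of 3 libraries, coloured by collagen class. Col4a1 and Col4a2 lie furthest right at 3073 to 3616, and the widest gaps between circles, as for Col2a1 and Col10a1, belong to scarce chains.

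By class, the 6 type IV chains made up 50.2% of the summed collagen level per kilobase in wild type and 49.7% in knockout. The 11 fibrillar chains made up 21.03% and 19.8%, the 6 type VI chains 14.8% and 15.2%, and the 4 transmembrane collagens 5.88% and 6.77%. The 8 FACIT chains contributed 3.94% and 4.11%, the multiplexins Col15a1 and Col18a1 2.18% and 2.05%, and types VIII and X 1.65% and 1.98%. By the principal transcript the type IV share was 43.3% and the fibrillar share 27.4% in wild type. All collagen means together summed to 149000 normalized counts in wild type and 136278 in knockout, which were 0.401% and 0.370% of the table's total.

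No collagen chain passed an adjusted p of 0.05 between the genotypes. Of the 37 chains given an adjusted p in the authors' deposited table, 0 were called, against 1.09% of all 16902 genes tested (0.497% lower and 0.592% higher in knockout). At an unadjusted p under 0.05 the table holds 6 of the 37 chains, against 8.47% of all genes: 4 with a lower knockout mean (background 4.04%) and 2 with a higher one (background 4.43%). The knockout mean was below the wild type mean in 25 of the 37 chains, against 50.6% of all genes tested. Their median log2 ratio of knockout over wild type means was -0.08, with quartiles of -0.18 and 0.03, where all genes had a median of -0.00 and quartiles of -0.07 and 0.07. In whole lung, fewer cells of a type and less RNA per cell cannot be told apart.

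**Figure D2:**
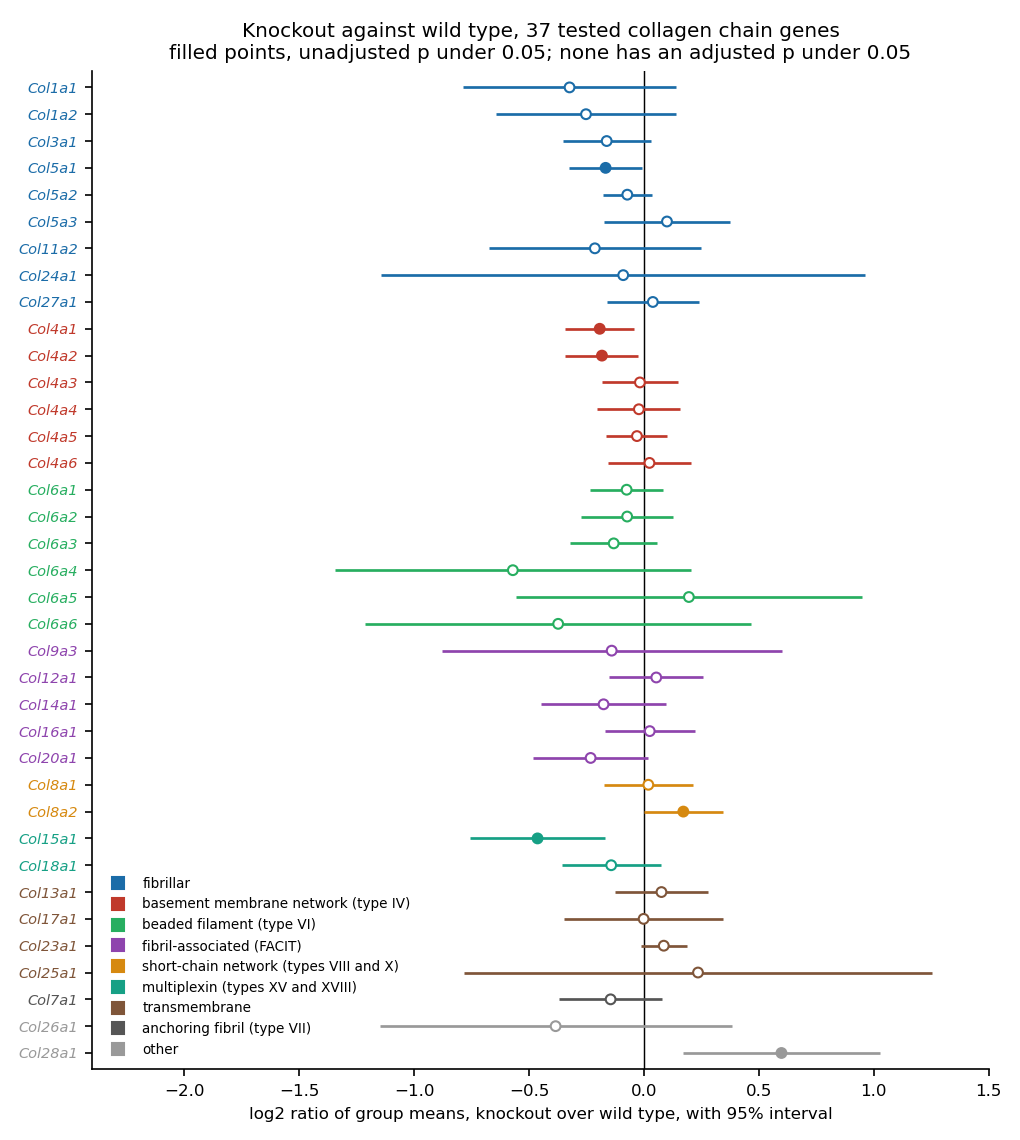
Log2 ratio of the knockout over the wild type mean for the 37 tested chains by class, with bars for the 95% interval derived from the authors' statistic and filled points for an unadjusted p under 0.05. The intervals of 31 chains lie within a 2-fold change either way, and 6 leave out 0.

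The smallest p belonged to Col15a1, a multiplexin of basement membrane zones whose end fragment is called restin. Its mean by the authors' deposited table was 639 in wild type and 464 in knockout, 72.5% of wild type, with an adjusted p of 0.105. The log2 ratio was -0.46 (95% interval -0.76 to -0.17). Its close relative Col18a1, the source of endostatin, had means of 2279.6 and 2065 and a log2 ratio of -0.14 (-0.36 to 0.07). Col28a1, a collagen described around peripheral nerve, had 79.8 normalized counts in wild type and 120.9 in knockout. The authors' deposited table lists it with an adjusted p of 0.221, and its log2 ratio was 0.60 (0.17 to 1.03). The 5 Schwann cell markers, of the cells that wrap such nerves, summed to 3684 and 3655, and the part of nerve content in the Col28a1 value was not tested.

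The type IV chains fell into a pair with lower knockout means and a quartet with nearly equal means. Col4a1 had 26989.8 normalized counts in wild type and 23618 in knockout, 87.5% of wild type, and the authors' deposited table lists it with an adjusted p of 0.325. Col4a2 had 23091 and 20343, 88.1% of wild type, and an adjusted p of 0.447 there. Their log2 ratios were -0.19 (-0.34 to -0.04) and -0.18 (-0.34 to -0.02), so neither was called although both intervals leave out 0. Col4a3, Col4a4 and Col4a5 make the network of the alveolar and kidney filtering membranes. Col4a3 had 10998 and 10865 (log2 ratio -0.02, -0.18 to 0.15), Col4a4 had 5245 and 5165 (-0.02, -0.20 to 0.16), and Col4a5 had 6116 and 5988 (-0.03, -0.16 to 0.10). Col4a6, a partner of Col4a5 in other basement membranes, had 1409 and 1433 (0.02, -0.16 to 0.21). The interval of Col4a1 overlaps that of each of the other chains, and the difference between the pair and the quartet was not tested.

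Within each head-to-head pair the chain ratios per kilobase were close between genotypes. Col4a1 over Col4a2 was 1.04 in wild type and 1.03 in knockout, and Col4a3 over Col4a4 was 2.23 and 2.24. Across pairs, Col4a1 over Col4a3 was 3.28 in wild type and 2.90 in knockout. Col4a5 over Col4a6 was 5.15 and 4.96. These ratios carry no error, since the table does not say how the chains vary together between libraries.

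Among the fibrillar chains 7 of 9 tested had a lower knockout mean, and none was called. Type I collagen is the main fibril of airway and vessel walls and of scars. Col1a1 had 7183 normalized counts in wild type and 5739 in knockout, and Col1a2 had 12249 and 10284. The authors' deposited table lists them with an adjusted p of 0.853 and 0.885. Their log2 ratios were -0.32 (-0.79 to 0.14) and -0.25 (-0.64 to 0.14), the widest intervals of any chain with a mean of 1000 or more. Col3a1, the type III chain that co-assembles with type I, had 12477 and 11151 (-0.16, -0.35 to 0.03). Type V collagen starts and limits fibril width. Col5a1 had 2274 and 2026, and its log2 ratio was -0.17 (-0.33 to -0.01). Its adjusted p by the authors' deposited table was 0.547 (0.0407 unadjusted). Col5a2 had 3463 and 3293 (-0.07, -0.18 to 0.04), and Col5a3 had 265 and 285 (0.10, -0.17 to 0.37). The minor fibrillar chains Col11a2 and Col27a1 had 86.5 and 74.6 (-0.21, -0.67 to 0.25) and 852 and 875 (0.04, -0.16 to 0.24). Col1a1 over Col1a2 per kilobase was 1.11 in wild type and 1.06 in knockout. By the principal transcript the same ratio was 0.529 and 0.503, where the textbook molecule has more alpha1 than alpha2 chains.

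Type VI filaments are made of Col6a1 and Col6a2 with Col6a3 or one of its later relatives Col6a4, Col6a5 and Col6a6. Col6a1 had 8053 normalized counts in wild type and 7642.5 in knockout (log2 ratio -0.08, -0.23 to 0.08). Col6a2 had 5220.0 and 4962 (-0.07, -0.27 to 0.13), and Col6a3 had 4855 and 4431 (-0.13, -0.32 to 0.06). The adjusted p of the 6 type VI chains in the authors' deposited table ran from 0.826 to 0.997. Col6a1 over Col6a2 was 2.93 in both genotypes per kilobase of merged exons and 1.49 in wild type by the principal transcript.

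Of the 12 tested chains with a higher knockout mean, Col4a6, Col5a3, Col6a5 and Col27a1 belong to the classes above and the others to the remaining classes, which held lower chains too. Type VIII is the short-chain network of vessel walls and corneal membrane. Col8a2 had 1091 in wild type and 1228 in knockout, with a log2 ratio of 0.17 and an interval whose lower end, 0.00081, is just above 0. Its adjusted p by the authors' deposited table was 0.586 (0.0489 unadjusted). Col8a1 had 610.1 and 618 (0.02, -0.17 to 0.21). Of the 4 transmembrane collagens 3 had a higher knockout mean. Col23a1, the most abundant of them, had 3949 and 4192 (0.09, -0.01 to 0.19). Col13a1, found at cell adhesions, had 1917 and 2021 (0.08, -0.12 to 0.28), and Col17a1, a hemidesmosome component of epithelium, had 239.7 and 239.5, where the sign of the ratio turns with the scaling of the groups. Among the 5 FACIT chains tested, 3 were lower and 2 higher in the mean, with a median log2 ratio of -0.14. Col12a1 and Col14a1, which decorate type I fibrils, had 3036 and 3151 (0.05, -0.15 to 0.26) and 1955 and 1731 (-0.18, -0.45 to 0.10). Col16a1 had 1339 and 1362.5, and Col20a1 had 415 and 353 (-0.23, -0.48 to 0.02). The anchoring fibril chain Col7a1 had 408 and 369 (-0.15, -0.37 to 0.08).

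The intervals show which changes were compatible with the values of each chain, without adjustment for the number of genes tested. They do not give the size of change needed for a call. All 21 chains with a mean of 1000 or more had an interval within a 2-fold change either way, and 25 of the 37 had one within a factor of 1.5. Of the 37, the intervals of Col6a4, Col6a6, Col24a1 and Col26a1 held a fall of 2-fold or more, and those of Col25a1 and Col28a1 held such a rise. Of the chains with a mean of 1000 or more, 15 of 21 had a lower knockout mean and the median log2 ratio was -0.07, against 52.6% lower and a median of -0.01 over the 8166 genes at that level.

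The spread between libraries of one genotype was wider for collagens than for most genes of like abundance. It is given as the coefficient of variation (CV) implied by the authors' model after counting error is removed, for genes with a mean of 1000 or more. DESeq2 draws the dispersion of most genes towards a trend and leaves far outliers as measured, so these CVs are model values. The 21 collagens had a median CV of 7.71%, against 5.48% over all 8166 such genes, and 18 of the 21 lay above the upper quartile of all genes, 6.31%. Col1a1 had a CV of 20.1% and Col1a2 of 16.9%, the latter above 98.8% of these genes. Those 2 were the collagens with a CV over 15%, a level chosen after the values were seen, which 105 genes in all exceeded. Col14a1, a FACIT chain on type I fibrils, had 11.5%, and Col3a1 had 8.25%. Col23a1 and Col5a2 lay at the low end with 4.09% and 4.34%. No test of this difference was made.

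**Figure D3:**
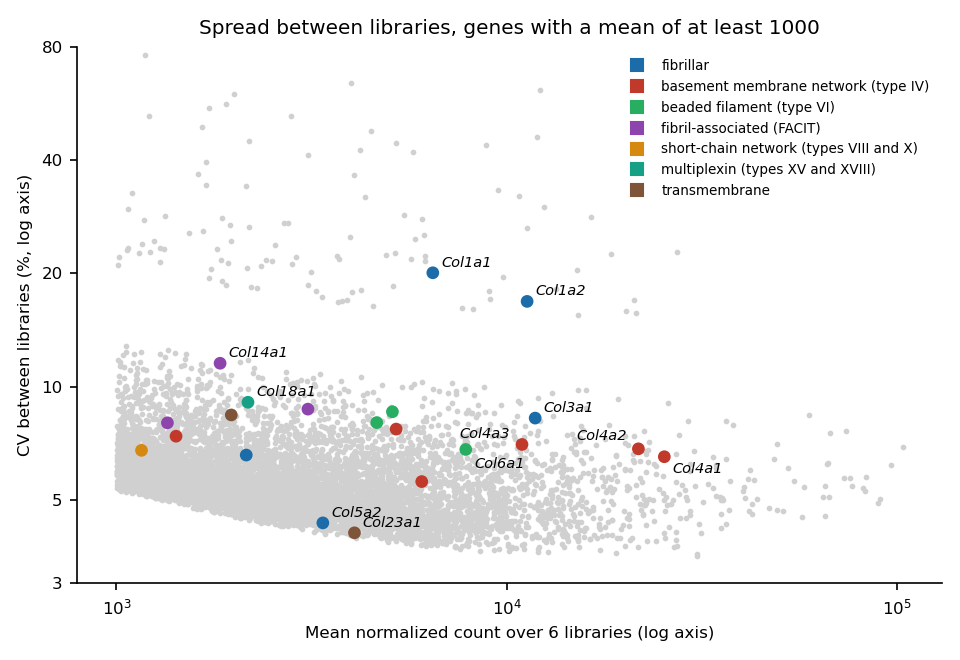
Coefficient of variation between libraries, in percent (log axis), against the mean normalized count (log axis) for genes with a mean of 1000 or more, grey for all genes and coloured for the 21 collagens. Col1a1 at 20.1% and Col1a2 at 16.9% stand above the bulk of genes, and Col23a1 at 4.09% lies at its lower edge.

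For the 13 scarcest chains the deposited group means could be resolved into whole reads of each library, because a mean of at most 40 is met by 1 combination of 3 read counts. The libraries are called A, B and C within a genotype, since nothing ties them to a labelled lung. Col6a4 had 28.5, 28.8 and 34.3 normalized reads in the wild type libraries and 18.5, 17.6 and 25.6 in the knockout libraries. All 3 knockout values were below all 3 wild type values, and the exact permutation p was 0.1 (2-sided), the smallest that 3 against 3 libraries can give. It was the only one of the 13 chains whose genotypes did not overlap, against 12.3% of the 4687 genes with both means between 0 and 40, and 7.66% with the knockout lower. Its adjusted p in the authors' deposited table was 0.826, and its log2 ratio was -0.57 (-1.34 to 0.20).

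Col6a5 had 19.7, 37.8 and 31.2 normalized reads in wild type and 33.2, 27.4 and 40.9 in knockout, and Col6a6 had 23.6, 36.8 and 22.9 against 19.5, 28.4 and 16.4. In both the genotypes overlapped. Col26a1 had 37.4, 30.8 and 38.5 in wild type and 15.6, 31.3 and 34.8 in knockout, so that knockout library A lay below all the others. Col25a1, a transmembrane collagen of nerve cells, had 17.7, 8.94 and 15.6 against 13.7, 16.7 and 19.4. The FACIT chain Col9a3 ranged from 27.05 to 31.8 in wild type and from 20.5 to 31.3 in knockout, and the fibrillar Col24a1 from 11.9 to 17.7 and from 10.2 to 19.6. Col19a1 ranged from 9.93 to 12.8 in wild type and from 6.14 to 10.7 in knockout, and Col22a1 from 10.4 to 12.8 and from 9.21 to 10.8. The cartilage chains Col2a1, Col9a2, Col10a1 and Col11a1 were near the limit of detection. Col2a1, the main cartilage collagen, had 3, 5 and 1 reads in wild type and 0, 3 and 2 in knockout. Col9a2, its fibril-associated partner, had 1, 2 and 1 reads against 3, 2 and 0, and Col10a1, the collagen of hypertrophic cartilage, had 2, 5 and 2 against 4, 5 and 6. Col11a1 had 5, 9 and 3 against 3, 8 and 3. None of these 4, nor Col19a1 and Col22a1, has an adjusted p in the table.

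**Figure D4:**
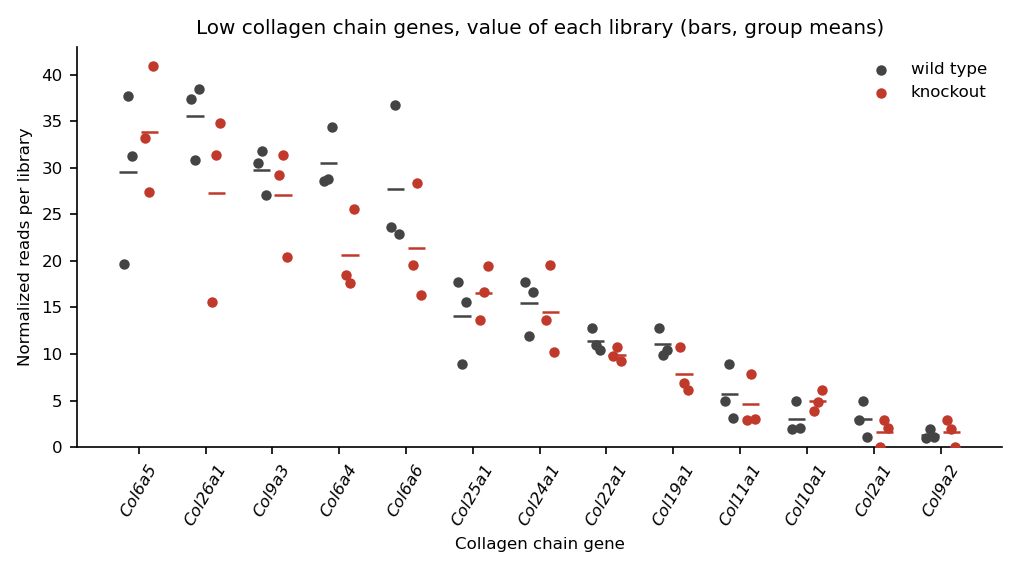
Normalized reads per library for the 13 scarcest chains, dark points for the 3 wild type and red points for the 3 knockout libraries, bars for the group means. Only for Col6a4 do the genotypes separate, with knockout values of 17.6 to 25.6 and wild type values of 28.5 to 34.3.

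On the genome, 6 collagen genes share chromosome 1 with lincRNA-Cox2, annotated as Ptgs2os2 at chr1:150159043-150164948. They are Col3a1, Col5a2, Col19a1, Col4a3, Col4a4 and Col6a3, at 59.3 to 125.6 megabases from that gene, and none was called. Other neighbours among the collagens are Col6a1, Col6a2 and Col18a1 on chromosome 10 and Col6a4, Col6a5 and Col6a6 on chromosome 9. The TruSeq RNA kit v2 does not mark strand, so reads of overlapping genes cannot be told apart. The largest share of a member's exons that overlaps another gene is 6.07%, for Col9a3 with Tcfl5.

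Genes that build and turn over collagen were counted in 6 lists chosen for their role. Among 26 genes of triple helix assembly and proline or lysine modification, 1 was called in the authors' deposited table, against 1.09% of all genes tested. It was Colgalt2, which adds galactose to hydroxylysine. Its mean was 1187 in wild type and 925 in knockout there (log2 ratio -0.36, adjusted p = 0.0187, DESeq2), and it lies 2.2 megabases from lincRNA-Cox2. P4ha1, a prolyl hydroxylase subunit, had 3378 and 3718, and the authors' deposited table gives it an adjusted p of 0.568. None of 13 tested genes of propeptide cleavage and crosslinking was called. The crosslinking enzymes had the lowest p of that list in the authors' deposited table: Lox with 1955 and 1516 (log2 ratio -0.37, adjusted p = 0.217) and Loxl2 with 1511 and 1285 (-0.23, adjusted p = 0.237).

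Of 22 collagen-binding proteoglycans and fibril regulators, 19 had a lower knockout mean, against 50.6% of all genes tested. Their median log2 ratio was -0.11, and 1 was called, against 1.09% of all genes tested. Thbs1, thrombospondin 1, an activator of latent TGF-beta, was the called one, at 11259 and 6728 by the authors' deposited table (log2 ratio -0.74, adjusted p = 0.0439, DESeq2). That call is lost when the p-values are adjusted over all rows, without the authors' filter on low means (adjusted p = 0.0531, Benjamini-Hochberg on the DESeq2 p-values). Hspg2, the basement membrane proteoglycan perlecan, had 9249 and 7192 there (-0.36, adjusted p = 0.0838). No collagen receptor among 15 was called, and the lowest p were those of Cd93 and Itga10, with log2 ratios of -0.22 and -0.55 and adjusted p of 0.347 and 0.4001 in the authors' deposited table. In the list of collagen breakdown 1 of 21 was called, against 1.09% of all genes tested: the neutrophil collagenase Mmp8 rose from 242 to 356 in the authors' deposited table (log2 ratio 0.56, adjusted p = 0.00116, DESeq2). Ctsk, the collagen-cleaving cathepsin K, had 1275 and 1453.5 there (adjusted p = 0.298).

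Of 29 tested genes of TGF-beta signalling and fibrotic regulators, 21 had a lower knockout mean, against 50.6% of all genes tested. Ctgf and Smad7 were among the called genes of this list, all of them lower in the authors' deposited table. Of all genes tested, 1.09% were called. Ctgf, a matrix-inducing secreted factor, had 8692 and 7002 by the authors' deposited table (log2 ratio -0.31, adjusted p = 0.00179, DESeq2). Smad7, the inhibitory Smad, had 4588 and 3445 by the authors' deposited table (-0.41, adjusted p = 0.0158, DESeq2). The median log2 ratio of this list was -0.08. No list was tested as a set.

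Markers of collagen-making and other cell types were summed for comparison. Lung identity was clear, with the alveolar type 2 marker Sftpc at 82187 normalized counts in wild type and 83359 in knockout. The 13 fibroblast markers, led by Inmt at 30304 and 28021, summed to 84456 in wild type and 82758 in knockout with none called, and 8 had a lower knockout mean. Of these markers Dcn, Dpt and Lum are also in the list of proteoglycans and fibril regulators. All 12 markers of smooth muscle and pericytes had a lower knockout mean, with sums of 43404 and 37610. Myh11 was the most abundant, at 7845 and 6588, and Lmod1 fell from 735 to 496 in the authors' deposited table (log2 ratio -0.57, adjusted p = 0.0128, DESeq2). Lmod1 is on chromosome 1, 14.8 megabases from lincRNA-Cox2. Of 10 endothelial markers 9 were lower, with sums of 179687 and 171295 and none called, and Cdh5, the most abundant, had 35256.5 and 33458.5. Adipocyte markers summed to 3084 and 2121, and cardiac muscle markers to 17047 and 13505, with none called in either list. The derived CVs ran from 10.0% for Cidec to 76.1% for Lep in the adipocyte list. In the cardiac list they ran from 17.3% for Actc1 to 83.1% for Nppa. The most abundant of each were Cidec, at 1232 and 981, and Myh6, at 6719 and 5645. Markers of basal epithelium summed to 286 and 159, of skeletal muscle to 667 and 509, of bone to 463 and 455 with Ibsp listed at 0 in knockout, and none of these was called. Krt15 led the basal list with 102 and 44.3, Ckm the skeletal list with 472 and 347, and Runx2 the bone list with 459.5 and 452. Mbp led the Schwann cell list with 3201 and 3256, and Clic5 the alveolar type 1 list with 45772 and 48132. Alveolar type 1 markers summed to 148710 and 149812 and type 2 markers to 359592 and 369803, with none called. Mesothelial markers, of the membrane around the lung, summed to 1480.4 and 4713. Upk1b, the most abundant of them in wild type and over all libraries, had 939 and 916, with a log2 ratio of -0.03. It was the only marker of the 7 with a lower knockout mean, and 6 had a higher one. Muc16 rose from 21.1 to 68.8 in the authors' deposited table (adjusted p = 0.0209, DESeq2), and Msln had 278 and 1515 and Upk3b 146 and 1404. Msln, Upk3b and 3 others of the 7 have no p-value at all, as only 17 rows do. The CVs derived for these 5 ran from 57.2% for Wt1 to 126% for Bnc1. The 2 markers with an adjusted p summed to 960 in wild type and 985 in knockout, so the higher knockout sum of the list rests on these 5 untested rows. How many libraries carry the higher knockout means of these 5 cannot be read from group means. The cartilage marker Acan had a mean of 0.662 in wild type and 0 in knockout, and Matn4 had 2835 and 2842. The part of these cell markers in the collagen values was not tested.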

How the data were processed

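Lung RNA of 3 wild type and 3 lincRNA-Cox2 knockout mice was sequenced from 500 ng total RNA with the TruSeq RNA kit v2 as paired 50 bp reads, per the labels' protocols. Bowtie2, STAR 2.5.1b, SAMtools, bedtools and DESeq2 with build mm10 are named in the submitters' processing notes, with no role given. The deposited table holds, per the file headers, 1 row per gene with the authors' mean normalized counts (a signal, count divided by size factor) over all libraries and per genotype. It also holds the authors' shrunken log2 fold change with its error, the authors' Wald statistic (a score), and the deposited p-value and adjusted p-value. No values of single libraries were used beyond those resolved from the means, and library totals were not used here. The wild type means sum to 3.71e+07 and the knockout means to 3.68e+07.

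A gene is called at an adjusted p under 0.05 in the authors' DESeq2 comparison, the only test behind the calls. Log2 ratios are of the 2 group means, with no pseudocount. The authors' statistic equals the ratio over its unshrunken error, because the implied prior SD was 0.1695 in nearly every row (1st to 99th percentile 0.1678 to 0.1717 over 10564 rows). The interval is the ratio ± 1.96 errors, and the CV is the dispersion that remains after counting error. Means up to 40 were resolved into whole reads of 3 libraries, uniquely for 4901 of 4901 wild type and 4877 of 4877 knockout means. These derivations were chosen after the data were seen. On simulated means the resolving step returned the true reads. For the error and the CV the simulated data were built from the same formulas, so that check covers only the arithmetic. Genes were placed by symbol on GENCODE M21 (GRCm38) for exon lengths. Python 3.11.15, pandas 2.3.3, numpy 2.4.6 and scipy 1.17.1 were used.

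The members and lists were chosen with earlier results of these data known. Named collagens are those with an unadjusted p under 0.05, the 10 highest per kilobase, and every chain of types I, III, IV, V, VI and VIII, and other chains are named as examples of their class or scarcity, chosen after their values were seen. From the lists, called genes and the 2 lowest p were named, except 1 called gene that is not reported here, and from the marker lists the highest mean and called genes, with Acan, Ibsp, Msln and Upk3b added after their values were seen. Alternatives changed the adjustment, threshold, filter, pseudocount, scaling and libraries.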

Additional observations from a re-analysis of the deposited data

How the results depend on the processing

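The count of 0 called chains stayed 0 with Benjamini-Hochberg adjustment over all rows with a p-value or over rows with a mean of at least 50. It was also 0 at a threshold of 0.1, and 6 at an unadjusted p under 0.05. Leaving out chromosome 1 could only keep it at 0, since that step drops chains and adjusts nothing anew. The smallest adjusted p of a chain, Col15a1 in each case, was 0.105 as deposited, 0.127 over all rows and 0.0979 over rows with a mean of at least 50. The median log2 ratio over the chains ranged from -0.09 to -0.05 over the other filters, the pseudocount of 1, the shrunken fold change and both rescalings. Of 111 chain values under 3 alternatives, 110 kept their direction, a count largely fixed in advance. A pseudocount cannot turn a direction, shrinkage towards 0 hardly can, and rescaling to the same total shifts every chain by 0.0109. Col17a1 was reversed to 0.0094 by that rescaling. The called count of proteoglycans and fibril regulators was 0 over all rows and 2 at a threshold of 0.1. The type IV share was 43.28% by the principal transcript, an alternative chosen after the data were seen. Leaving out each library in turn was possible for 7 tested chains. The log2 ratio ranged from -0.3694 to 0.1076 for Col24a1 (0.0209 without wild type library A), from -0.0069 to 0.4341 for Col25a1, from -0.5993 to -0.1052 for Col26a1, from -0.7572 to -0.4707 for Col6a4, from -0.0271 to 0.411 for Col6a5, from -0.6297 to -0.1181 for Col6a6 and from -0.2606 to 0.0249 for Col9a3, so that 4 of these changed sign. For the other 30 the table gives group means only. No paired analysis was possible because the labels give no pairing and the table gives group means. The intervals are widest for chains with few reads.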

Other observations

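Proteins that carry a collagen-like stretch but are not named as collagen chains were counted as a list chosen after the data were seen. Of 31 found, 29 have an adjusted p in the authors' deposited table, with 15 lower and 14 higher knockout means and a median log2 ratio of -0.03. C1qtnf2, a secreted C1q and TNF related protein, fell from 1228 to 976 in the authors' deposited table (log2 ratio -0.33, adjusted p = 0.0198, DESeq2), 1 called gene of 29 against 1.09% of all genes. The next lowest p was that of Emid1, a matrix protein, at 920.3 and 736 (adjusted p = 0.0980 in the authors' deposited table). The macrophage scavenger receptor Marco had 498 and 673 (log2 ratio 0.44, adjusted p = 0.360 in the authors' deposited table). The surfactant collectins Sftpa1 and Sftpd had 69990.2 and 76289, and 24455 and 25838. The complement genes C1qa, C1qb and C1qc had log2 ratios of 0.02, 0.00 and 0.03.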
